A study of Mus musculus with 4 samples.

Results

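Untreated Tlr4-/- alveolar type II epithelial cells (AEC2) were set against untreated wild-type AEC2, each measured on 1 Affymetrix array. These are 2 of the 4 arrays of a mouse study on hyaluronan, TLR4 and the renewal of alveolar stem cells. The other 2 arrays held wild-type and Tlr4-/- AEC2 taken on day 4 after bleomycin, which damages DNA and is used to injure the mouse lung. Every array held RNA of flow-sorted AEC2 pooled from 4 to 5 mice per group, amplified as cDNA before hybridisation. The sources used here name no Tlr4 allele, strain, sex or age of the mice and no gates of the sort. With 1 pool on each side, no spread between mice could be measured, no test was made, and a difference between the pools cannot be told apart from an effect of genotype. In such sorted pools, fewer cells of a type and less RNA per cell cannot be told apart either.

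AEC2 make and recycle surfactant, the lipid and protein film that keeps alveoli open, and they divide to replace the flat type I cells of the alveolar wall. TLR4 is a receptor of innate immunity that binds bacterial lipopolysaccharide together with CD14 and MD-2 and also responds to fragments of hyaluronan. It signals through the adaptors MyD88 and TRIF to NF-kB and to interferon genes, so that cytokines, chemokines and acute phase proteins are among its known targets.

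Values are log2 signals per gene, averaged over the probe sets of that gene. Of 18194 genes, 9097 were kept, those with a 4-array mean over 7.05, the median gene's log2 signal. A difference is Tlr4-/- minus wild type on the log2 scale, and a gene was called at 2-fold or more. Where 4 signals are given, the untreated pair comes first and the day 4 pair second, with wild type before Tlr4-/- in each. Among 4491 genes with several bright probe sets, the differences of probe sets of a gene had a standard deviation of 0.32. That figure describes disagreement within the same pair of arrays and not between mice.

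Markers of AEC2 were bright in both pools and mostly lay close to equal, as the label asks. Some markers of other cells were bright too. The type I cell genes Ager and Aqp5 read 12.82 and 12.96, and 12.01 and 12.25. The airway club cell gene Scgb1a1 read 13.93 and 13.51. The purity of the sort was not tested. Of 24 AEC2 genes kept, 12 were above 0 and 12 below, 0 were 2-fold apart, and the median difference was 0.00010. The surfactant protein genes Sftpc, Sftpb, Sftpa1 and Sftpd each read above 13.6 on both untreated arrays. The brightest probe set of any array read 14.55, so differences at these signals may be compressed. Etv5, a transcription factor that maintains AEC2 identity, read 12.08 and 12.14, and the lysozyme gene Lyz2 differed by 0.01. Abca3, the lipid transporter of lamellar bodies, had the lowest difference at -0.51, but its 3 probe sets ranged from -1.73 to 0.12. Napsa, the protease that processes surfactant protein B, differed by -0.36. Cebpa, a transcription factor of AEC2 maturation, had the highest difference at 0.28.

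Over all genes, 71 were at least 2-fold higher in untreated Tlr4-/- cells, 0.78% of those kept, and 31 were at least 2-fold lower, 0.341%, which makes 102 or 1.12% in all. The middle of the distribution lay slightly above 0, with a median of 0.08, 62.2% of genes above 0 and 37.8% below. Of the calls 69.6% were higher. With differences centred at 0 this was 52.4% (43 higher and 39 lower), and after a loess correction on signal 55.8%. The count of higher genes was 122 when the probe set of highest mean stood for a gene. Without the filter the counts were 133 and 84, and with the filter at the 75th percentile 30 and 12. On the weaker side of the comparison, 29 of the 71 higher genes and 11 of the 31 lower genes read below 7.05, so the size of their fold is uncertain. Several probe sets read 10 of the higher and 8 of the lower genes, and 1 gene on each side had a probe set that went the other way.

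**Figure D1:**
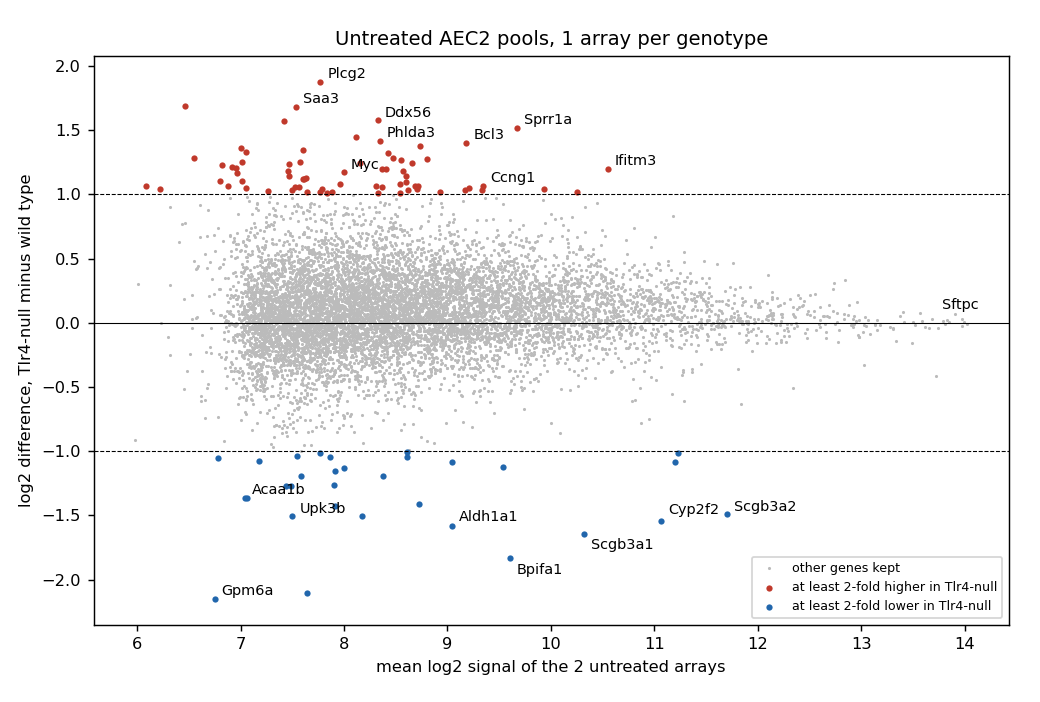
Each point is 1 of the 9097 genes kept, with the mean log2 signal of the 2 untreated arrays on the horizontal axis and the log2 difference, Tlr4-/- minus wild type, on the vertical axis. Dashed lines mark 2-fold. The 71 higher genes (red) lie mostly at low and middle signals, while airway genes among the 31 lower genes (blue) reach mean signals above 11, and Sftpc lies at 0.

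The targeted gene was read by 4 probe sets, which disagreed. One read 8.87, 7.24, 9.07 and 6.39 on the 4 arrays, 3.09-fold lower in the untreated Tlr4-/- pool and 6.42-fold lower at day 4. Another read 9.71, 10.38, 9.88 and 10.29, and one more 7.65, 8.09, 7.90 and 8.39, both higher in the Tlr4-/- arrays. The last was dim, between 3.89 and 4.05. Which of them lie in the deleted part of the gene was not given in the sources used here, and a probe set outside that part checks nothing. Averaged over all 4, Tlr4 read 7.56 and 7.44 in the untreated pools.

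In RefSeq's gene order on chromosome 4 (GRCm38.p6), the nearest 10 kept genes on each side of Tlr4 had differences from -0.58 (Snapc3) to 0.57 (Alad). Of these 20 genes, 10 were above 0, 10 below and 0 at 2-fold. Before Tlr4 8 of the 10 genes were above 0, and after it 8 of the 10 were below. Over all genes 62.2% were above 0 and 37.8% below. Some signs rest on small differences, such as 0.03 for Akna, -0.03 for Tmem268 and -0.04 for Kdm4c. The neighbours were examined after other values had been seen.

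Genes of conducting airway cells were lower in the untreated Tlr4-/- pool. Club cells, the secretory cells of the small airways, are marked by secretoglobins and by enzymes that handle inhaled chemicals. Of 13 club and secretory genes kept, 11 were below 0, 5 of them at 2-fold, against a background of 0.341% of all genes, with a median of -0.81.

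The secreted antimicrobial protein gene Bpifa1 read 10.52, 8.69, 10.44 and 10.17, 3.55-fold lower in the untreated Tlr4-/- pool. The untreated Tlr4-/- array was the only low array of the 4 for this gene. The secretoglobin gene Scgb3a1 read 11.14, 9.50, 10.21 and 10.01, 3.13-fold lower, so that wild-type untreated stood highest and Tlr4-/- untreated lowest. Scgb3a2, another secretoglobin, read 12.45, 10.96, 12.07 and 12.24, 2.81-fold lower, again low only in the untreated Tlr4-/- pool. Cyp2f2, a cytochrome P450 typical of club cells, read 11.84, 10.30, 10.70 and 10.85, 2.91-fold lower. For Cyp2f2 wild-type untreated was the high array, above the other 3. Aldh1a1, a retinaldehyde dehydrogenase, read 9.83, 8.25, 9.31 and 9.49, a difference of -1.58.

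Other secretory genes had smaller differences. Bpifb1 differed by -0.84, the mucin gene Muc5b by -0.81, Lypd2 by -0.70 and the trefoil factor gene Tff2 by -0.48. Scgb1a1, the most widely used club cell marker, read 13.93 and 13.51, a difference of -0.42 among the brightest signals. Cbr2, a carbonyl reductase, differed by 0.01, Gsta3, a glutathione transferase, by -0.19 and Aldh1a7 by 0.24. The 5 members below the filter had differences from -0.81 (Chad) to 0.17 (Agr2). The summed linear signal of all 18 club genes was 45491 in wild type and 32335 in Tlr4-/-, against 38000 and 36082 at day 4.

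Ciliated airway cells, which beat mucus out of the lung, showed the same direction at lower signals. Of 11 ciliated genes kept, 10 were below 0, against 37.8% of all genes, and 0 were at 2-fold, with a median of -0.39. All 15 dimmer members were also below 0, from -0.99 (Ccdc113) to -0.10 (Dnah9), although such dim signals carry little weight. Ccdc153 read 8.65, 7.71, 8.58 and 8.63, and Ak7, an adenylate kinase of cilia, read 7.30, 6.38, 7.38 and 7.30. In both genes only the untreated Tlr4-/- array was low. Foxj1, the master transcription factor of motile cilia, was dim at 6.66 and 6.13. Tppp3, a microtubule-binding protein, went the other way, reading 9.63 and 9.83. With the filter at the 75th percentile the ciliated median was -0.041. Of 8 basal airway cell genes 2 were kept, Krt5 at 8.24 and 8.23 and Dapl1 with a difference of -0.22.

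Genes of the mesothelium, the cell layer that covers the lung, had the lowest median of the lists, -1.17 over the 4 members kept. Gpm6a, a membrane glycoprotein, read 7.82, 5.67, 8.80 and 8.44, 4.44-fold lower in untreated Tlr4-/- cells, the lowest value of all named genes. Its 2 probe sets gave -2.38 and -1.92. Upk3b, a uroplakin, read 8.26, 6.75, 8.88 and 8.37, 2.84-fold lower, with probe sets at -1.58 and -1.44. Msln, mesothelin, read 8.11 and 7.27, and Cldn15 read 7.68 and 6.95. For all 4 genes the untreated Tlr4-/- array was the lowest of the 4 arrays. The defining factor Wt1 was dim in both pools, 4.56 and 4.32. Over all 10 mesothelial genes, dim ones included, the median was -0.64 and the summed linear signal was 1345 in wild type and 696 in Tlr4-/-.

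Stromal genes past the filter had the same direction. Of 8 fibroblast and smooth muscle genes kept, 8 were below 0, against 37.8% of all genes, with a median of -0.42. Over all 21 on the array, dim ones included, the median was -0.21. The dim members were mixed, with Cnn1 at 0.40 and Mfap4 at -0.60. Igfbp5, a binding protein of insulin-like growth factors, read 9.43, 8.02, 10.05 and 9.38, 2.66-fold lower, with probe sets at -1.42 and -1.40. The proteoglycan gene Dcn differed by -0.61 and the collagen gene Col1a1 by -0.57. Outside this list, Gpc3, a heparan sulphate proteoglycan, read 9.13 and 8.09. The water channel gene Aqp1, typical of endothelium and mesothelium and also outside it, read 7.79 and 6.83. Endothelial genes were too dim for a statement: only 3 of 19 were kept, Vwf, Egfl7 and Esam, with differences of -0.19, -0.11 and 0.28.

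**Figure D2:**
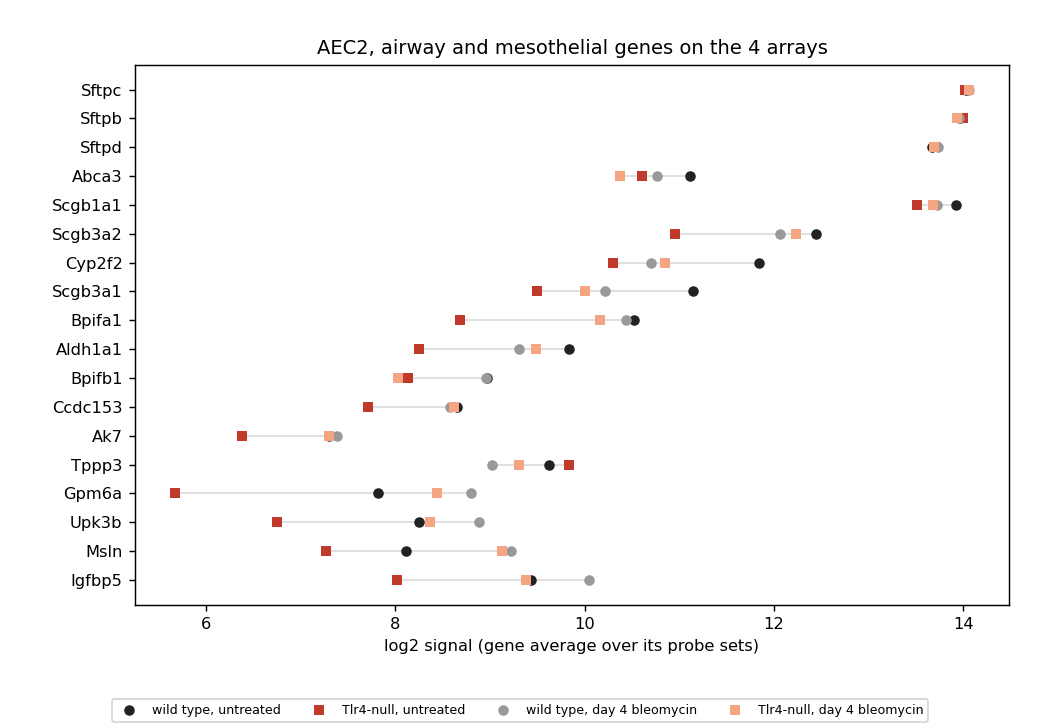
Log2 signals of AEC2, club, ciliated, mesothelial and stromal genes are plotted for the 4 arrays, 1 gene per line (circles for wild type, black untreated and grey day 4; squares for Tlr4-/-, red untreated and orange day 4). The surfactant genes Sftpc, Sftpb and Sftpd overlap on all arrays, whereas Bpifa1, Ccdc153, Ak7 and Gpm6a are low on the untreated Tlr4-/- array alone, with Gpm6a at 5.67.

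Enzymes of xenobiotic metabolism, many of them made by airway cells, lay mostly below 0. Of 17 kept, 13 were below 0, against 37.8% of all genes, and 3 were 2-fold lower, against 0.341%. The median was -0.19, or -0.046 with the filter at the 75th percentile. Aldh1a1 and Cyp2f2 are already counted among the club genes, and the other was the cytochrome P450 gene Cyp2s1, which read 8.54, 7.28, 7.96 and 8.09. The flavin monooxygenase gene Fmo2 differed by -0.73, with 5 probe sets from -1.39 to 0.14. In contrast Cyp3a13, a member of the main drug-metabolising P450 family, read 6.93 and 8.28 and was 2-fold higher. Aldh3a1 differed by 0.50 and Ephx1, epoxide hydrolase, by 0.50.

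Immune cell genes did not share a direction. Of 4 neutrophil genes kept, 4 were below 0, against 37.8% of all genes, with a median of -0.59. Over all 11 on the array, dim ones included, the median was -0.43. The dim members were mixed, with Ngp at 0.14 and Mmp8 at -0.48. Clec4d, a C-type lectin of myeloid cells, read 8.57, 7.44, 8.28 and 7.71, 2.19-fold lower. The calgranulin gene S100a9 read 11.09, 10.48, 11.26 and 10.46, and its partner S100a8 read 10.55, 10.12, 10.65 and 10.40. Both Tlr4-/- arrays were lower than both wild-type arrays for Clec4d, S100a9 and S100a8, but not for Ltf, lactoferrin, which read 7.58, 7.01, 8.70 and 8.31. Pglyrp1, a peptidoglycan-binding protein of neutrophils, read 7.72, 6.65, 7.63 and 8.15 and had no such order. The summed linear signal of the 11 neutrophil genes was 4728, 3270, 5260 and 3718.

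Leukocyte and macrophage genes were mixed. Of 20 kept, 14 were above 0 and 6 below, against 62.2% of all genes above 0. At 2-fold 2 were higher, against 0.78% of all genes, and the list median was 0.16. Clec7a, the receptor for fungal beta-glucan, read 5.91, 7.19, 8.52 and 9.04, 2.43-fold higher but from a dim wild-type signal. The day 4 arrays helped Clec7a past the filter. The leukocyte surface gene Cd52 read 7.38, 8.40, 9.20 and 9.66. The pan-leukocyte gene Ptprc differed by 0.72, with probe sets at 0.59 and 0.85, while the macrophage gene Cd68 read 9.08 and 8.57. Siglecf, a lectin of alveolar macrophages, had a difference of 2.28 but did not pass the filter. The summed linear signal of the 24 leukocyte and macrophage genes on the array was 5641 in wild type and 6386 in Tlr4-/-. Lymphocyte genes were nearly all dim, with only Cd79b and Cd2 kept, at -0.41 and 0.01. Dim T cell genes Cd8a and Cd3e differed by 1.54 and 1.53 and the dim B cell gene Cd79a by -1.54. The part of these cells in the differences described for other immune genes was not tested.

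Acute phase genes, which tissues secrete in inflammation, were higher in part. Of 9 kept, 7 were above 0 and 2 were 2-fold higher, against 0.78% of all genes, with a median of 0.24. That median was 0.025 when the brightest probe set stood for a gene and 0.070 with the filter at the 75th percentile, both under the 0.08 of all genes. With the filter on the untreated arrays it was 0.23. The day 4 arrays helped some members past the filter, Serpina3n and Il1rn among them. Saa3, the serum amyloid A made outside the liver, read 6.69, 8.37, 8.50 and 8.56, 3.20-fold higher in the untreated Tlr4-/- pool. Wild-type untreated was the low array, and the other 3 lay close together. Serpina3n, a protease inhibitor, read 6.46, 7.57, 8.56 and 8.21, 2.15-fold higher. The bright acute phase genes did not share this: Lcn2, lipocalin 2, read 13.03 and 13.01, and Hp, haptoglobin, read 12.31 and 12.38. Reg3g, an antimicrobial lectin, went the other way at 8.26 and 7.95. The haem carrier gene Hpx was 2.05-fold higher but dim, at 5.48 and 6.52.

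Some regulators of this response were higher. Bcl3, an IkB-like coactivator of NF-kB that STAT3 also induces, read 8.48, 9.88, 9.03 and 9.46, 2.64-fold higher, with the untreated Tlr4-/- array highest of the 4. Cebpd, a transcription factor of the acute phase response, read 10.77, 11.60, 11.43 and 11.34, 1.78-fold higher, with probe sets at 0.77 and 0.89. The kinase gene Jak2 differed by 0.46, the cytokine gene Lif by 0.44 and the feedback inhibitor gene Socs3 by 0.31. Of 14 IL-6 family and STAT3 genes kept, 9 were above 0 and 5 below, near the 62.2% of all genes above 0. Among those below, the receptor gene Lifr differed by -0.28 and the kinase gene Pim1 by -0.18. The list median was 0.24, against 0.08 for all genes, and ranged from 0.11 to 0.24 over the settings tried. Of 22 NF-kB genes, 11 were above 0 and 11 below, with a median of -0.0023. Bcl3, which is in both lists, was the 1 member at 2-fold. Relb differed by 0.54, and Csf2, the gene of the growth factor GM-CSF, by -0.51.

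Components of Toll-like receptor signalling had differences under 2-fold. Of 15 kept, 12 were above 0, against 62.2% of all genes, and 3 below, Cd14, Tab3 and Tlr4 itself, with a median of 0.24. The co-receptor gene Cd14 read 9.96 and 9.57, the lowest difference among those kept. The kinase gene Irak1 read 8.05 and 8.61, with 4 probe sets from 0.33 to 0.78, and the TRIF gene Ticam1 read 8.22 and 8.60. Myd88 read 8.88 and 9.16, Tlr2 read 6.76 and 6.98, and Sigirr, an inhibitor of the pathway, read 8.60 and 8.88. Ly96, which encodes MD-2, was dim at 6.56 and 6.66, and the dim receptor gene Tlr1 differed by 1.14.

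Hyaluronan genes differed little. Of 8 of 23 kept, 4 were above 0, and the differences ran from -0.27 for the hyaluronidase gene Hyal2 to 0.32 for Ugdh, whose enzyme makes a sugar precursor. Chemokine genes had a median of 0.35 over 16 members, but -0.0077 with the filter at the 75th percentile. The median was 0.18 with the filter on the untreated arrays and 0.14 without a filter. The day 4 arrays helped some members past the filter, such as Cxcl13, which read 6.56, 7.23, 8.11 and 7.96. The highest chemokine differences, 0.68 for Cxcl13, 0.67 for Ccl3 and 0.54 for Ccl17, came from genes that leukocytes also make.

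**Figure D3:**
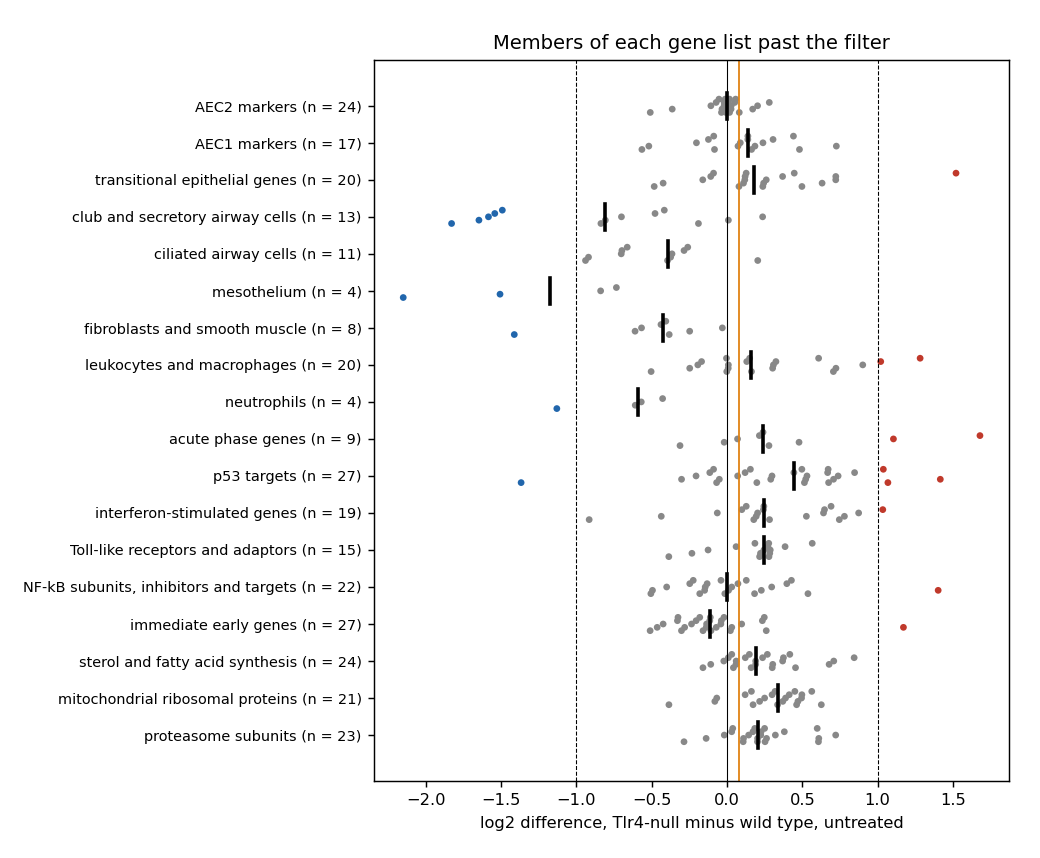
Each point is a list member past the filter, placed by its log2 difference (Tlr4-/- minus wild type, untreated), with black bars for the list median, dashed lines at 2-fold and the orange line at 0.08, the median of all genes kept. Club, ciliated, mesothelial, stromal and neutrophil members lie mostly left of 0, p53 targets mostly right of it, and AEC2 markers close to 0.

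Target genes of p53, the transcription factor that halts the cell cycle after DNA damage, were higher in the untreated Tlr4-/- pool. Of 27 kept, 20 were above 0, 3 were 2-fold higher and 1 was 2-fold lower, with a median of 0.44. Over all genes 62.2% were above 0, 0.78% were 2-fold higher, 0.341% were 2-fold lower and the median was 0.08. The day 4 arrays helped some members past the filter, and over all 31 members on the array the median was 0.30. Phlda3, an inhibitor of the kinase Akt, read 7.64, 9.05, 10.88 and 11.06, 2.67-fold higher. Ccng1, cyclin G1, read 8.81, 9.88, 11.50 and 11.49, 2.10-fold higher, with 3 probe sets from 0.83 to 1.51. In both genes the untreated Tlr4-/- array lay between wild-type untreated and the 2 day 4 arrays. Ddit4l, an inhibitor of mTOR, read 5.70, 6.74, 7.93 and 8.53, 2.05-fold higher from a dim signal.

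Further p53 targets had the same direction. Trp53inp1 read 9.57, 10.42, 11.15 and 11.26, with probe sets at 0.84 and 0.85. Cdkn1a, the cell cycle inhibitor p21, read 10.43, 11.17, 12.36 and 12.35, with probe sets at 0.51 and 0.96. Sesn2, a stress-induced sestrin, differed by 0.67, the lipase gene Abhd4 by 0.71 and Perp, a junction protein, by 0.52. Several classical targets were not higher. Mdm2, which marks p53 for degradation, read 9.49 and 9.44, and Bbc3, which encodes the death protein PUMA, read 7.62 and 7.32. Eda2r, a death receptor of the TNF receptor family, read 7.75, 6.38, 7.06 and 7.79, 2.58-fold lower. The untreated Tlr4-/- array was the lowest of the 4 for Eda2r.

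The promoters of 3 of the higher genes are shown because p53 binds a defined sequence. RefSeq promoter sequences (GRCm38.p6, the 250 bases before the start of the gene) were found for 21 of the 27 genes and searched on both strands for the p53 half-site. It was present in 6 of the 21, Ccng1, Cdkn1a, Ddit4l, Ei24, Mdm2 and Polk, and in 7.18% of 27025 promoters of the same length. Capitals mark the match in the gene's own orientation.
Ccng1, chr11:40755422-40755511, minus strand: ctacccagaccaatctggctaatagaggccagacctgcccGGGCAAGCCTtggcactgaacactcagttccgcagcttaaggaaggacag
Ddit4l, chr3:137623542-137623631, plus strand: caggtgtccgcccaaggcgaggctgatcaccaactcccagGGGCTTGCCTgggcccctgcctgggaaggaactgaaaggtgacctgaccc
Cdkn1a, chr17:29090866-29090977, plus strand: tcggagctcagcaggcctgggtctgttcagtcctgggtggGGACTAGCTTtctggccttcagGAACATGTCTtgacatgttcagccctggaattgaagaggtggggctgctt
Mdm2 and Polk hold a match too but differed by -0.05 and -0.07, and Ei24 by 0.44. A match is a description of letters and not a binding site.

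Epithelial injury genes were higher in part. Of 20 genes of the transitional state between AEC2 and type I cells, 15 were above 0, against 62.2% of all genes. At 2-fold 1 was higher, against 0.78% of all genes. The list median was 0.18, against 0.08 for all genes, and 0.105 with differences centred at 0. Sprr1a, a cross-linked barrier protein, read 8.91, 10.43, 11.04 and 11.57, 2.87-fold higher. Tgm1, the transglutaminase that cross-links such proteins, read 7.77, 9.09, 8.92 and 9.18. For Tgm1 the untreated Tlr4-/- signal lay within the range of the day 4 arrays. Lgals3, galectin 3, differed by 0.72, Itgb6, the integrin chain that activates TGF-beta, by 0.72, and the tight junction gene Cldn4 by 0.63 from a dim 6.09. The keratin gene Krt7 differed by -0.11, and Ccn2, a matrix-associated growth factor, by -0.48.

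Junction and matrix genes were mostly above 0, as were 62.2% of all genes, whose median was 0.08. Of 14 claudin and tight junction genes kept, 13 were above 0, with a median of 0.27, led by Marveld2, tricellulin, at 8.10 and 8.93. Of 17 TGF-beta and matrix genes, 14 were above 0 with a median of 0.29, and 1 was 2-fold higher, against 0.78% of all genes. The adhesion protein gene Tgfbi read 8.67 and 9.62, with 4 probe sets from 0.74 to 1.06. The 1 member at 2-fold was Timp1, an inhibitor of metalloproteinases, 2.09-fold higher but dim at 5.56 and 6.62. It passed the filter through its day 4 signals of 8.9 and 9.0. Type I cell genes were mixed, 11 of 17 above 0, near the share of all genes. Clic5 differed by 0.73, Pdpn by 0.48 and Cav1 by 0.44, whereas the basement membrane collagens Col4a3 and Col4a4 differed by -0.52 and -0.57.

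Of 19 interferon-stimulated genes 16 were above 0, against 62.2% of all genes, and 1 was 2-fold higher, against 0.78%. Their median was 0.24, against 0.08 for all genes, or 0.63 when the probe set of highest mean stood for a gene. Ifi27l2a read 8.10, 9.14, 11.78 and 11.85, 2.05-fold higher. Ifitm3, a restriction factor of virus entry that was not in the list, read 9.95, 11.15, 12.36 and 12.39. Ifit3 differed by 0.87, Ifit1 by 0.78 and Oas1a by 0.75. Ube2l6, a conjugating enzyme for the interferon-induced ISG15, was 2-fold higher at 6.21 and 7.44, and its day 4 signals of 7.23 and 7.65 helped it past the filter. Usp18, the protease that removes ISG15, went the other way, reading 6.44, 5.52, 8.63 and 8.87. Antigen presentation differed little. The class II genes H2-Aa, H2-Eb1 and Cd74 differed by 0.08, 0.04 and 0.08, and only the protease gene Ctss, also strong in macrophages, reached 2-fold, at 9.74 and 10.77.

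**Figure D4:**
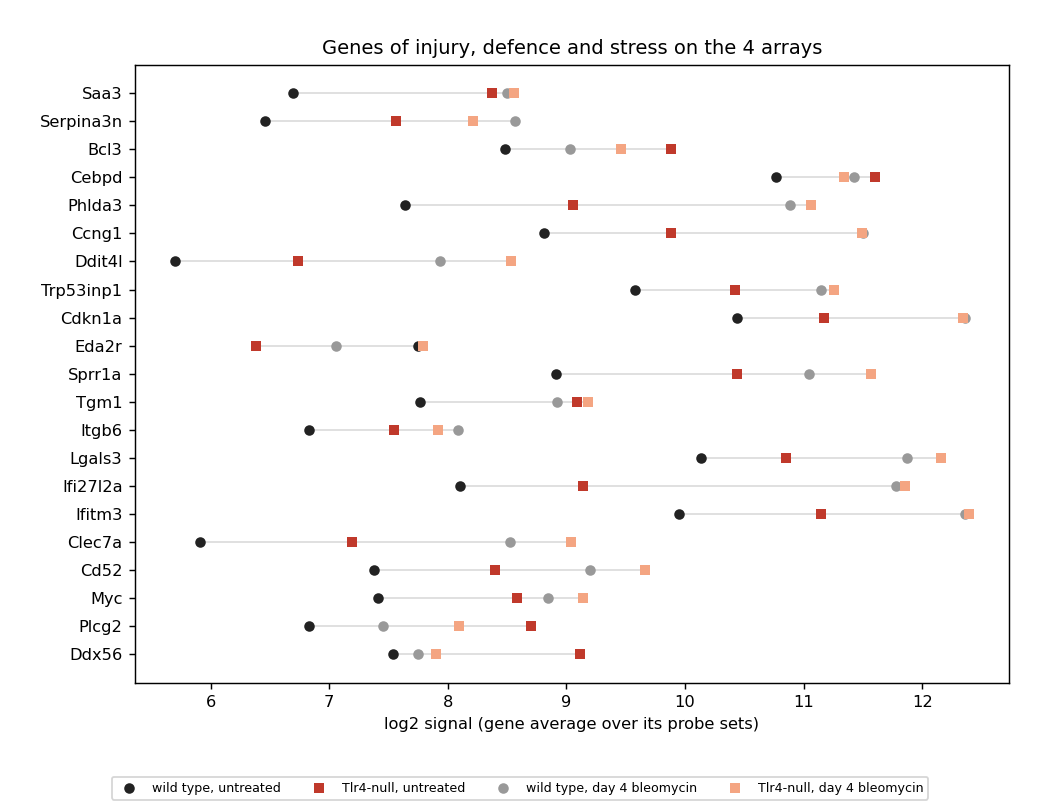
Log2 signals of acute phase, p53 target, transitional, interferon and other named genes are plotted for the 4 arrays, with symbols as in the plot of airway genes. For Phlda3, Ccng1, Ifi27l2a and Ifitm3 the untreated Tlr4-/- square lies between the wild-type untreated circle and the day 4 symbols, for Bcl3, Plcg2 and Ddx56 it is the highest of the 4, and for Eda2r it is the lowest.

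Most growth and biosynthesis lists lay above 0 by small amounts, beside 62.2% of all genes above 0 and a median of 0.08. Myc, a transcription factor that drives growth, read 7.41, 8.58, 8.84 and 9.14, 2.25-fold higher. In contrast 20 of the 27 immediate early genes were below 0, against 37.8% of all genes, with Fosb at -0.51 and Klf2 at -0.46. Mitochondrial ribosomal proteins were above 0 in 18 of 21, with a median of 0.34 and the highest value for Mrpl16 (0.63). Proteasome subunits were above 0 in 20 of 23 (median 0.20, Psmd14 at 0.72). Respiratory chain genes were above 0 in 26 of 28, but with a median of 0.11 they lay close to the 0.08 of all genes. Glycolysis genes were above 0 in 13 of 13, with a median of 0.26 and Hk1 at 0.44. After a loess correction on signal the medians were 0.27 for mitochondrial ribosomal and 0.096 for proteasome genes. They were 0.027 for respiratory chain and 0.15 for glycolysis genes. Cytosolic ribosomal proteins had a median of -0.021.

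Lipid synthesis feeds surfactant. Of 24 sterol and fatty acid genes, 21 were above 0, against 62.2% of all genes, with a median of 0.19. The highest were sterol enzymes, Mvd at 8.52 and 9.36, Dhcr7 at 9.97 and 10.68 and Sqle at 10.19 and 10.87. The fatty acid synthase gene Fasn and the desaturase gene Scd1 differed by 0.03 and 0.01. In the stress response to amino acid shortage and misfolded protein, 23 of 30 were above 0, with Atf5 at 0.77 and Psat1 at 0.55. Of 14 S phase genes kept, 10 were above 0 with a median of 0.21, led by the replication gene Mcm2 at 0.70. However, the S phase median was -0.048 without probe sets of suffix _x_at or _s_at and 0.078 with the filter on the untreated arrays. Of 8 G2/M genes, 5 were above 0 with a median of 0.09, with Mki67 at 0.15 and Cdc20 at -0.37. Heat shock chaperones had a median of 0.04.

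In the remaining lists 0 genes were 2-fold apart, against 1.12% of all genes. Counts above 0 stand beside 62.2% of all genes. Of 16 BCL2 family and caspase genes 6 were above 0, with Apaf1, the core of the apoptosome, at 0.51 and the death gene Bcl2l11 at -0.31. Of 19 genes of the oxidative stress factor NRF2 and of glutathione 10 were above 0, from -0.42 for Cbr1 to 0.53 for Akr1b8. Of 18 Wnt, FGF and progenitor genes 13 were above 0, with a median of 0.06. Dusp6, a phosphatase that limits ERK signalling, had the highest difference among them at 0.59, and Axin2, a Wnt target, differed by -0.16. Of 12 sodium and fluid transport genes 6 were above 0, with the sodium channel subunit gene Scnn1a at -0.32 and the chloride channel gene Cftr at 0.37. All 3 erythroid and platelet genes kept were below 0, with the platelet chemokine gene Pf4 at -0.81.

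Other genes with large differences lay outside these lists. Plcg2, a phospholipase of immune receptor signalling, had the highest value, reading 6.83, 8.71, 7.46 and 8.09, 1.87 on the log2 scale. Resp18 and Lynx1 were higher by 1.69 and 1.57 from dim wild-type signals of 5.62 and 6.64. Slc12a4, a potassium and chloride cotransporter, read 7.39, 8.84, 8.76 and 8.88, so that wild-type untreated was the array apart. Ddx56, an RNA helicase of ribosome assembly, read 7.54, 9.11, 7.75 and 7.90. Lrrc51 and Gsk3a, the alpha form of glycogen synthase kinase 3, read 8.04, 9.42, 8.43 and 8.24 and 8.16, 9.44, 8.88 and 8.93. For Ddx56, Lrrc51 and Gsk3a the untreated Tlr4-/- array was the highest of the 4.

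The remaining genes among the 25 highest were Zfyve26, Acp5, Ssbp3, Morn2, Noa1, Slc25a47, Cmas, Tubb2b, Klhl42 and Gramd1c, with differences from 1.21 to 1.36. Acp5, the acid phosphatase of macrophages and osteoclasts, read 6.39 and 7.72. The 2 probe sets of Ssbp3 gave 0.19 and 2.38, so its average rests on one of them. Among the 25 lowest, the pseudogene Speer4cos read 8.70, 6.59, 6.52 and 6.74 and was high in the wild-type untreated pool alone. Lman2l, a lectin of the secretory pathway, had probe sets at -2.32 and 0.16, Tmem198b at -2.16 and -0.15 and Glis2 at -1.76 and -0.31. Bex1, Gatd3a, Klhl29, Dnah6, Spaca9, Gabre and Ctu1 had differences from -1.27 to -1.01.

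The genotypes were also compared on the day 4 arrays, which share no array with the untreated pair. There 4 genes were 2-fold higher (0.044%) and 5 lower (0.055%) of 9097, 9 in all (0.0989%). Of the 71 genes called higher when untreated, 60 were also above 0 at day 4 (84.5%), against 53.2% of all genes, with a median of 0.25 and values from -0.46 to 0.87. None of the 71 was 2-fold higher at day 4. Of the 31 lower genes, 11 were below 0 at day 4 (35.5%), against 46.7% of all genes, with a median of 0.15, and 2 were 2-fold higher there.

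Values at day 4 varied by gene group. Club and ciliated genes had medians of -0.81 and -0.39 in the untreated pair and -0.19 and 0.05 at day 4. At day 4 the median was -0.20 for stromal genes (8 of 8 below 0), -0.48 for neutrophil genes (4 of 4) and -0.22 for mesothelial genes (3 of 4), against 46.7% of all genes below 0. Bpifb1 differed by -0.84 and -0.93, and S100a9 by -0.61 and -0.80. Scgb3a2, Cyp2f2 and Aldh1a1 were above 0 at day 4, by 0.17, 0.15 and 0.18. The p53 targets had medians of 0.44 and 0.25, although Ccng1 and Cdkn1a differed by -0.01 each at day 4. Saa3 differed by 0.06, Plcg2 by 0.63, Sprr1a by 0.53 and Bcl3 by 0.43. Rbak, a zinc finger repressor, had the highest day 4 value of the 71, reading 7.05, 8.17, 7.60 and 8.47.

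**Figure D5:**
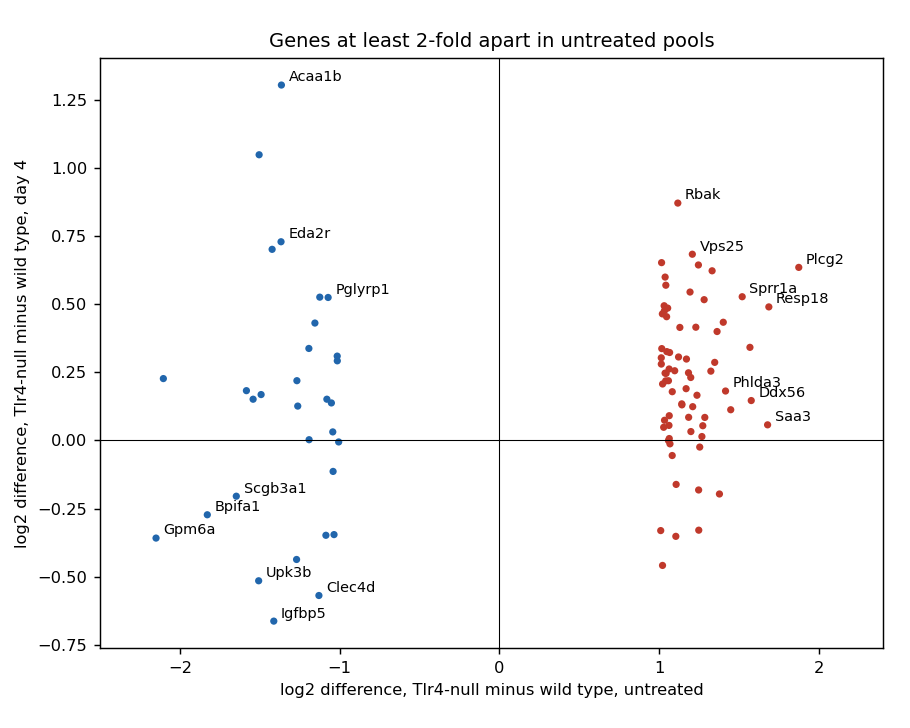
Each point is 1 of the 102 genes at least 2-fold apart in the untreated pools, with that log2 difference on the horizontal axis and the difference between the day 4 arrays on the vertical axis, both Tlr4-/- minus wild type. Of the 71 genes on the right 60 lie above the horizontal line, and of the 31 on the left 11 lie below it, with Acaa1b at the top left (-1.36 and 1.30).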

How the data were processed

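RNA of sorted AEC2 pools was hybridised to 4 Affymetrix arrays, and the authors deposited 1 value per probe set and array. Those deposited values were taken to be log2 signals because of their range (medians 6.93 to 6.98). No software, normalization or detection call was named in the sources used here. GEO's platform annotation gave 1 gene symbol to 34958 of 45101 probe sets, several to 932 and none to 9147, besides 64 controls; 34754 of those with 1 symbol were matched to RefSeq by Entrez identifier. Probe sets were averaged per gene with pandas 2.3.3, and no test was made. Settings tried were quantile normalization, centring, loess, the probe set of highest mean, removal of probe sets of suffix _x_at or _s_at, and 3 filters. The calling step was run on simulated data with planted shifts well past the threshold, so that run does not cover genes near 2-fold. The members, the 43 gene lists and the settings were chosen with earlier results of these data known; 2 further lists (ribosome biogenesis, tRNA synthetases) were added after values were seen. Genes were named by rule: Tlr4, the 25 highest and 25 lowest genes without predicted or clone names, up to 5 members per list by size, and any member of 8 lists (AEC2, club, ciliated, mesothelial, acute phase, p53, Toll-like receptor, clock). Further genes (Ifitm3, Rbak, the neighbours of Tlr4, and list members given for contrast) were chosen after their values were seen.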

Additional observations from a re-analysis of the deposited data

Results flagged for a closer look

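Acaa1b and Eda2r had genotype differences of opposite direction in the untreated and day 4 pairs, each larger than 0.64, which is 2 standard deviations between probe sets of a gene. Acaa1b, a peroxisomal thiolase of fatty acid oxidation, differed by -1.36 untreated (7.72 in wild type, 6.36 in Tlr4-/-) and by 1.30 at day 4 (7.01 and 8.31). Eda2r differed by -1.37 untreated and by 0.73 at day 4. Each rests on a lone probe set and 1 array per group, and the difference between the pairs was not tested. They were the only such cases among the 370 named genes examined. Predicted genes were not in that set, and the predicted genes Gm26504 (-1.50 and 1.05) and Gm15708 (-1.42 and 0.70) reversed in the same way.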

How the results depend on the processing

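No paired analysis was possible because each group had 1 array. The alternatives were 8 in number. Of the 71 higher and 31 lower genes, 29 and 23 stayed at 2-fold under the deposited, quantile-normalized, centred, loess-corrected and highest-probe-set values. The higher count was 43 after centring, 122 with the probe set of highest mean, 133 without a filter and 30 with the filter at the 75th percentile, and the lower count was 84 and 12 under those 2 filters. The mesothelial median was -1.58 with the highest probe set, -0.64 without a filter and -0.84 with the filter on the untreated arrays or at the 75th percentile. At the 75th percentile the medians were -1.49 for club, -0.041 for ciliated, -0.99 for stromal, 0.28 for endothelial, 0.65 for interferon and -0.0077 for chemokine genes; fewer members passed. With the highest probe set the interferon median was 0.63, and Lman2l reversed to 0.16, the value of its other probe set. Without detection calls, folds of genes under 7.05 on an array have an uncertain size.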

Other observations

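The clock list showed no common direction. The core clock has activators (Bmal1, listed here as Arntl, with Clock or Npas2), repressors (Per and Cry) and the nuclear receptors Nr1d1 and Nr1d2, which repress Arntl, Clock, Npas2, Nfil3 and Cry1. Over 16 members kept, 8 were above 0 and 8 below, with a median of -0.0057 against 0.08 for all genes. Nr1d1 read 11.27, 10.48, 10.67 and 10.51, and Nr1d2 read 9.79, 9.42, 9.82 and 9.17, with untreated differences of -0.78 and -0.37. Of these 5 genes, picked after their values were seen, 4 were above 0, against 62.2% of all genes: Cry1 at 6.98 and 8.01, Nfil3 at 9.67 and 10.31, Arntl at 8.08 and 8.49 and Npas2 at 8.83 and 9.20, while Clock differed by -0.25. Only Cry1 reached 2-fold. Tef, an output gene, was lower by 0.55, with 3 probe sets from -0.62 to -0.42, while Dbp, another output gene, differed by 0.07 untreated and by -1.13 at day 4. No hour of collection was named in the sources used here. Among promoters of 14 clock genes, the element TAGGTCA bound by ROR and Nr1d receptors was found in Nfil3 only (2.27% of all 27025 promoters), and the E-box CACGTG in Ciart, Cry1, Per1 and Tef (6.05% of all). Both are shown for genes that were higher, with the match in capitals (RefSeq, GRCm38.p6, both on the minus strand). In Nfil3 the element lies on the opposite strand of the gene. Not all genes with the E-box were higher: Per1 and Tef differed by -0.04 and -0.55.
Nfil3, chr13:52981040-52981091: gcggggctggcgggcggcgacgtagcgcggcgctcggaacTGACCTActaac
Cry1, chr10:85185069-85185154: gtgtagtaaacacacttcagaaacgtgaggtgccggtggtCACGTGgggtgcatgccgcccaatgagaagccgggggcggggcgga

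Genes of ribosome assembly and of tRNA charging formed 2 lists drawn up after Ddx56 and Rars had been seen. They were above 0 in 22 of 27 and 15 of 18, against 62.2% of all genes, with medians of 0.19 and 0.24. Nle1, a factor of large subunit maturation, read 6.87, 8.05, 6.98 and 7.07, and Nip7 read 6.58, 7.55, 7.47 and 7.51. Rars, arginyl-tRNA synthetase, read 7.59, 8.58, 9.03 and 8.97, and Gars, glycyl-tRNA synthetase, differed by 0.64. At day 4 the list medians were 0.15 and 0.05.

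Sex-linked genes did not separate the untreated pools: Xist read 11.41 and 11.30 (10.79 and 10.04 at day 4, a difference of -0.75), Eif2s3y 6.82 and 6.86 and Kdm5d 6.78 and 6.55. At day 4 the Y-linked genes read higher, Eif2s3y at 8.85 and 8.87 and Kdm5d at 7.80 and 7.83.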
